A study of Mus musculus with 15 samples.

Results

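What distinguishes embryonic pancreatic cells from those of a p23 pup whichever population was sorted? Gene expression was compared between 6 arrays of p23 cells and 9 arrays of embryonic cells, which together are all 15 arrays of the study. The p23 side held 3 arrays of Sox9-EGFP+ cells and 3 arrays of GFP- cells, both from Sox9-EGFP pups at postnatal day 23. The embryonic side held 3 arrays each of Sox9-EGFP+ cells at e10.5, Sox9-EGFP+ cells at e15.5 and Ngn3-EGFP+ cells at e15.5. Sox9-EGFP and Ngn3-EGFP are green fluorescent protein reporters of Sox9, a regulator of pancreatic progenitors and ducts, and of Neurog3 (Ngn3), the regulator that commits progenitors to the endocrine fate. All groups came from reporter males crossed to CD1 females and were sorted from dissociated pancreas, and only the brightest GFP+ cells were taken. Several animals were pooled for each sort, so the replicates are pools. The GFP- fraction was whatever lacked GFP in the p23 pancreas, so blood, vessel and connective cells could enter it. Neurog3 itself read 5.05 at the lowest, 5.12 at the median and 5.31 at the highest of the 6 p23 arrays, against 9.23, 11.66 and 12.21 in the 9 embryonic arrays, on the log2(intensity + 16) scale used for every level below. Sox9 read 8.68, 10.85 and 12.10 in the p23 arrays and 10.13, 11.93 and 12.14 in the embryonic arrays, so the ages overlapped. The 3 GFP- arrays were the lowest of the p23 arrays.

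In the embryonic pancreas a pool of multipotent progenitors expands and gives rise to acinar cells, which make digestive enzymes, to duct cells and to endocrine cells. Around birth and weaning, growth slows, fetal growth genes are silenced across many organs, and hormones such as glucocorticoids and thyroid hormone, together with microbes and food, act on the tissue. Imprinted genes, which are expressed from 1 parental allele, are known for their high expression in growing fetal tissue and their decline after birth.

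A gene was called concordant when both p23 group means lay above, or both lay below, all 3 embryonic group means. The distance between the nearest p23 and embryonic group means is its gap. Of 16883 genes tested, 2791 (16.5%) were concordant and higher at p23, and 3815 (22.6%) were concordant and lower. Many of these gaps were small: their median was 0.17 for higher and -0.28 for lower genes, and 1715 concordant genes had a gap under 0.1. A gap of at least 1 was found for 287 higher and 406 lower genes, and of at least 2 for 103 and 159. The rule has no lower limit, so Vapa, with a gap of 1e-04, was counted as higher, while Drc7, whose nearest group means crossed at a distance of -7.76e-05, was not. Trpc5, with a gap of 1.21e-05, was just inside the lower set, and Fam162a, with a distance of -0.000287, was just outside.

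**Figure D1:**
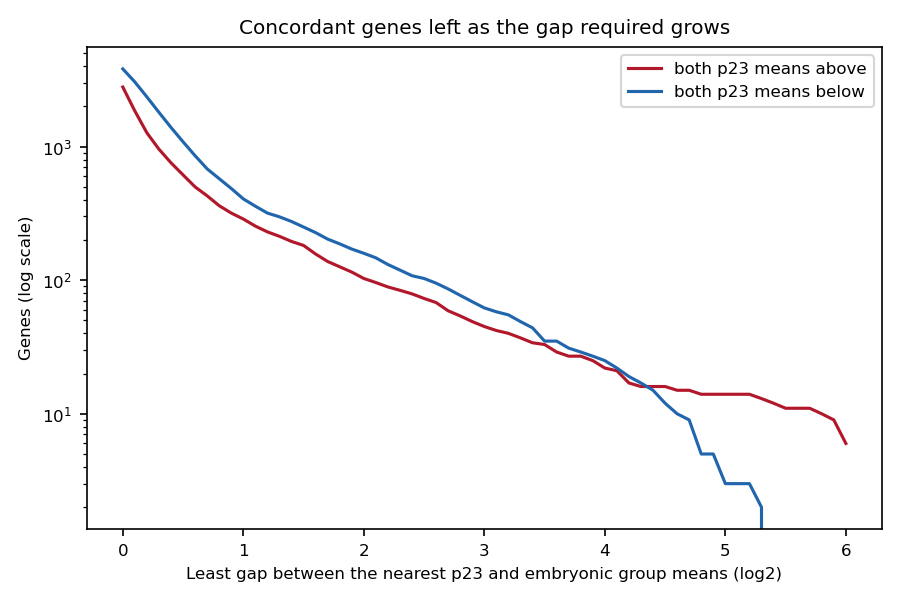
Number of concordant genes (y axis, log scale) against the least gap required between the nearest p23 and embryonic group means (x axis, log2 units), with a red line for both p23 means above and a blue line for both below the embryonic means. At a gap of 1 the lines stand at 287 and 406 genes, and at a gap of 2 at 103 and 159.

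The difference between ages, the mean of the 2 p23 groups minus the mean of the 3 embryonic groups, was tested with limma at a Benjamini-Hochberg adjusted p of 0.05. It was called for 9775 genes, of which 4218 (25.0%) were higher and 5557 (32.9%) lower at p23, with 1077 and 1278 of them by at least 2-fold. The median difference over all genes was -0.008. Genes both called and concordant numbered 2543 (15.1%) higher and 3648 (21.6%) lower, and wherever concordant members of a gene list are counted below, they were also called. The same group means enter both rules, so these shares only give the background against which a list is read. A stricter count took genes called in the same direction in each of the 6 pairs of a p23 with an embryonic group, which held for 622 (3.68%) higher and 1287 (7.62%) lower. The 6 p23 arrays lay entirely above the 9 embryonic arrays for 841 genes (4.98%) and entirely below them for 1517 (8.99%). The errors of this fit come from the spread between pooled arrays of 1 population. A second fit had age as the only term and the sorted population as a random block, so its error includes the spread between populations. It called 860 (5.09%) higher and 1379 (8.17%) lower. Its correlation within a population, 0.637, was 1 value for all genes. Only 5 populations bear on age, but the fit counts all 15 arrays, so its adjusted p-values can still be too small. With 2 populations of 1 age and 3 of the other, age cannot be told apart from anything else that differed between the embryonic and p23 harvests, and in such bulk samples fewer cells of a type and less RNA per cell cannot be told apart.

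The genes with the largest gaps were acinar, endocrine or imprinted. Among genes with the higher age above the table median in every group, the 10 furthest higher at p23 were Reg2, Reg3a, Gp2, Reg3b, Cuzd1, Try4, Reg3g, Ctrl, Reg3d and Zg16, all secretory products or granule proteins of acinar cells. The 10 furthest lower were Isl1, Peg10, Zdbf2, Gjd2, Pax6, Insm1, Rfx6, Neurod1, Kcnk16 and Neurog3. In that group Isl1, Pax6, Insm1, Rfx6, Neurod1 and Neurog3 are endocrine transcription factors, Gjd2 (connexin 36) couples beta cells, Kcnk16 is an islet potassium channel, and Peg10 and Zdbf2 are imprinted. Reg2, a secreted lectin-like protein, read 12.90, 13.30 and 13.54 (lowest, median and highest of 6 p23 arrays), against 4.76, 5.26 and 5.52 in the embryonic arrays, a difference of 8.10 ± 0.10 (SE; adjusted p = 2.606e-16 by limma). Isl1 read 5.09, 5.50 and 6.40 at p23, against 10.76, 11.69 and 12.09 in embryonic cells, a difference of -5.90 ± 0.18 (adjusted p = 3.143e-12). No p23 array of these 20 genes reached an embryonic array, by the rule that chose them.

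**Figure D2:**
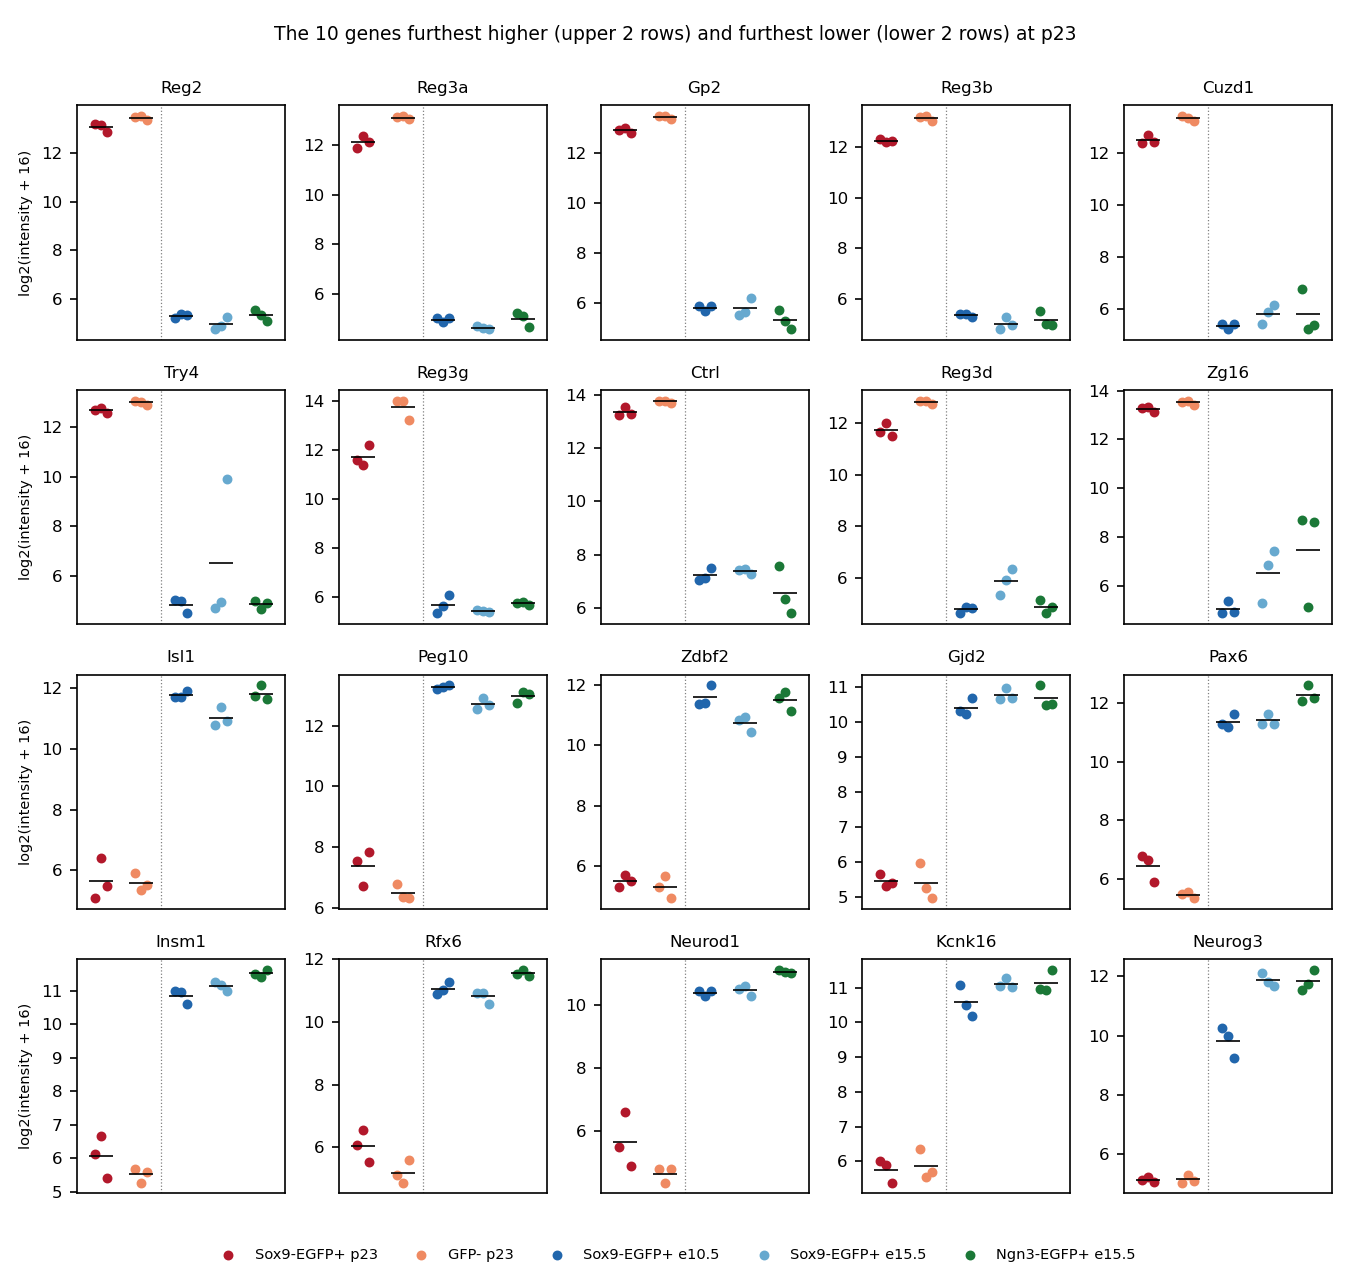
Level of the 20 genes with the largest gap in each array (y axes, log2(intensity + 16)), with p23 populations left of the dotted line, embryonic populations right of it, points for arrays and bars for group means. The upper 10 genes are higher and the lower 10 lower in every p23 array, and Try4 has a single embryonic array, at 9.91, far above the others.

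Imprinted genes were far lower at p23, and by similar amounts in both p23 sorts. Of 23 imprinted genes tested, 19 fell, 2 rose and 2 were not called; 16 were concordant and lower and 15 fell in all 6 pairs of groups. Their median difference was -3.09, against -0.008 over all genes. With the population as a random block, 16 fell and 1 rose. Peg10, a retrotransposon-derived gene needed in the placenta, read 6.32, 6.74 and 7.85 in p23 arrays, against 12.54, 13.06 and 13.33 in embryonic arrays. All populations of 1 age thus lay near each other, and the difference was -6.06 ± 0.15 (adjusted p = 5.445e-13). Zdbf2, on chromosome 1, read 4.94, 5.40 and 5.69 at p23, against 10.42, 11.36 and 11.98 in embryonic cells (difference -5.86 ± 0.15, adjusted p = 5.594e-13).

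Members of separate imprinted clusters fell together. On chromosome 12, Dlk1, a membrane protein of immature cells, averaged 5.19 and 5.54 in Sox9-EGFP+ and GFP- cells at p23 and between 10.04 and 10.53 in the embryonic groups. The non-coding RNA Meg3 of the same cluster read 7.33, 7.86 and 9.44 at p23, against 11.84, 12.18 and 12.77 in embryonic cells, and Rtl1 fell as well (-2.89). On chromosome 7, Zim1 (-5.00), Usp29 (-3.91) and Peg3 (-3.09), neighbours in 1 imprinted domain, fell in all 6 pairs, as did Igf2 (-4.57) and Cdkn1c (-3.36). Cdkn1c, a cyclin-dependent kinase inhibitor that restrains fetal growth, read 7.64, 8.18 and 8.34 at p23, against 11.02, 11.46 and 11.90 in embryonic cells. Meg3 is expressed from the maternal and Dlk1 from the paternal allele, and Cdkn1c (maternal) and Igf2 (paternal) are known as opposed regulators of growth, so the fall covered genes of both parental origins and both actions. The exceptions were Gatm (4.22, an enzyme of creatine synthesis that is abundant in acinar cells) and Dcn (2.41, a matrix proteoglycan of connective tissue), which rose, and Phlda2 (0.07) and Magel2 (-0.02), which were not called. Dcn is also on the list of mesenchymal markers, and it was not called with the population as a random block (adjusted p = 0.0652). The allele of expression was not measured, so whether any member, Gatm and Dcn included, was imprinted in these cells is not shown.

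Of 16 heterochronic and fetal RNA-binding genes, named for the timing of developmental steps, 12 fell and 2 rose, and 9 were concordant and lower. With the population as a random block 6 fell and 0 rose. Igf2bp1, which binds Igf2 and other fetal mRNAs, read 5.82, 6.36 and 6.51 at p23, against 8.72, 10.42 and 11.86 in embryonic arrays (difference -4.24 ± 0.22, adjusted p = 7.319e-10). Hmga2, an architectural chromatin protein and a target of let-7 miRNAs, read 5.44, 6.25 and 6.76 at p23, against 8.69, 10.10 and 11.00 in embryonic arrays (-3.94 ± 0.11, adjusted p = 2.879e-12). Both were highest at e10.5 and intermediate at e15.5, with e15.5 still far from p23. Igf2bp3 (-2.74) and Sall4 (-2.88) had the same order of group means. Lin28b, which blocks let-7 maturation, was different: it averaged 5.95 and 6.08 in Sox9-EGFP+ and GFP- cells at p23, against 10.32 in Sox9-EGFP+ cells at e10.5, but 5.79 and 6.05 in Sox9-EGFP+ and Ngn3-EGFP+ cells at e15.5. It was thus already as low at e15.5 as at p23, it was not concordant, and it was not called with the population as a random block (adjusted p = 0.326). Lin28a (-0.06) and Trim71 (0.12) were not called, with group means between 7.13 and 7.72. Myc rose (1.76) and was highest in GFP- cells, at 11.91, but was not called with the population as a random block (adjusted p = 0.0656). It is also on the list of immediate early genes described below.

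The ligands, receptors and signal proteins of insulin-like growth factor and growth hormone were split. Of 20 tested, 5 rose and 9 fell, with a median difference of -0.07, and with the random block 3 rose and 4 fell. The fetal ligand Igf2 read 5.41, 6.51 and 7.14 at p23, against 8.89, 11.19 and 12.04 in embryonic arrays. The postnatal ligand Igf1 rose (1.47), although it was not concordant, since Sox9-EGFP+ cells at e15.5 (10.57) had as much as those at p23 (10.49), and its call was lost with the random block (adjusted p = 0.116). The receptor Igf1r fell (-1.55), as did Grb10, an imprinted inhibitor of insulin receptor signalling (-2.26 ± 0.12, adjusted p = 1.128e-09). Socs2, a feedback inhibitor induced by growth hormone, read 9.04, 9.41 and 9.81 at p23, against 6.29, 6.57 and 7.63 in embryonic cells (2.74 ± 0.18, adjusted p = 8.679e-09). Irs2, an insulin receptor substrate, rose in all 6 pairs (1.09), while Irs1 fell (-0.73; adjusted p = 0.239 with the random block). The receptors Ghr (0.21) and Insr (0.17) were not called.

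**Figure D3:**
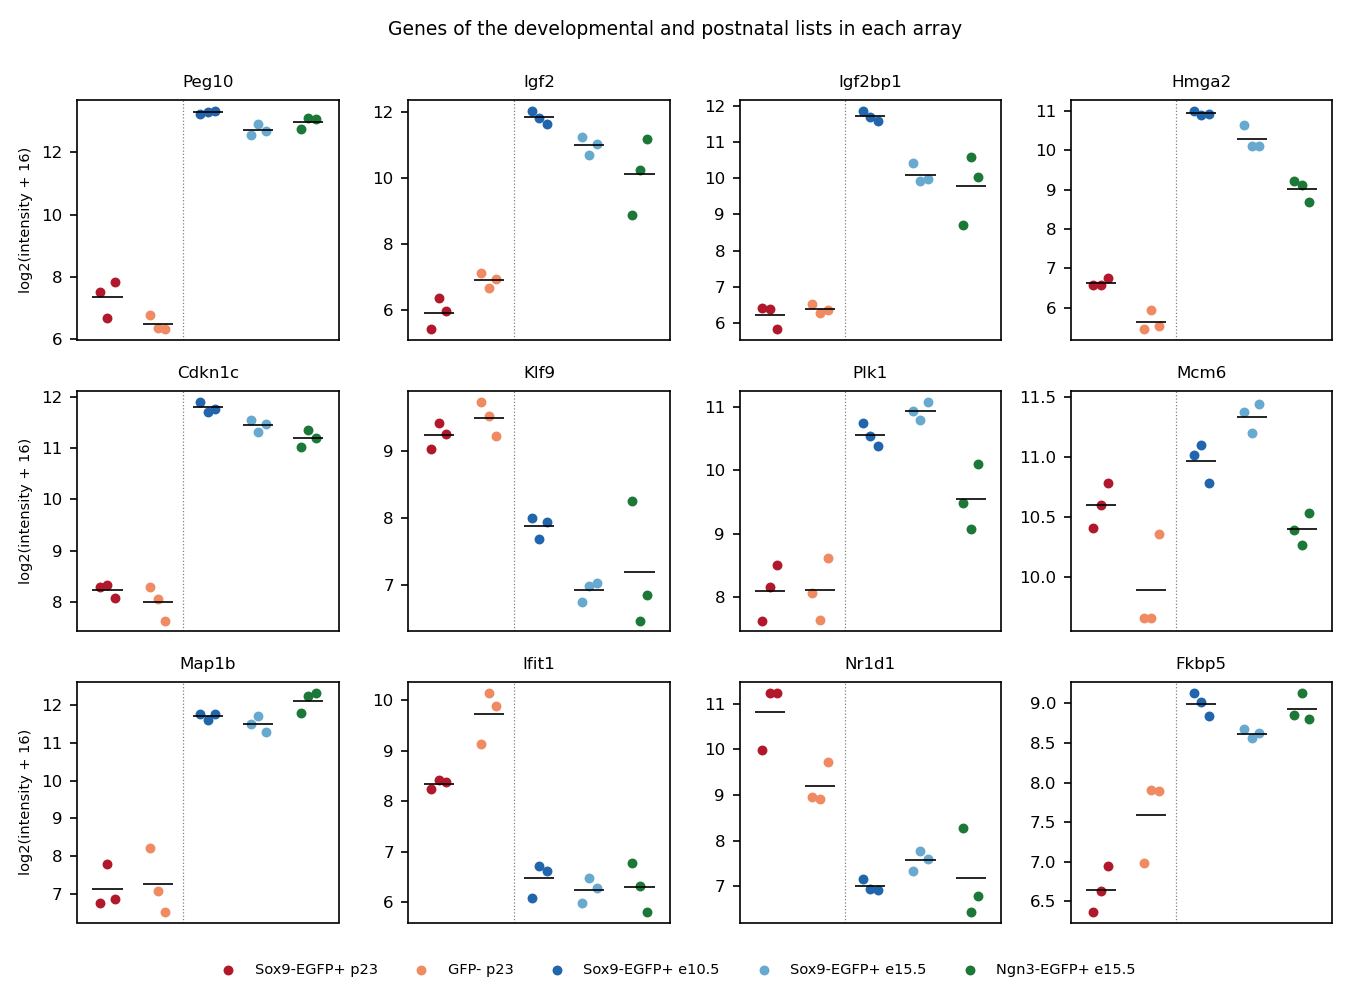
Level of 12 genes in each array (y axes, log2(intensity + 16)), with p23 populations left of the dotted line and embryonic populations right of it, points for arrays and bars for group means. Igf2, Igf2bp1 and Hmga2 are lowest at p23 and highest at e10.5, Klf9, Ifit1 and Nr1d1 are higher in both p23 populations, and Mcm6 overlaps between p23 and Ngn3-EGFP+ cells.

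Mitosis and spindle genes were lower at p23, with Ngn3-EGFP+ cells the nearest of the embryonic groups. Of 46 tested, 44 fell and 0 rose (2 not called), with a median difference of -1.24. Concordance held for 27, and a fall in all 6 pairs for 10. The mean level of the list lay between 8.17 and 8.97 in the p23 arrays, against 8.44 to 10.35 in the embryonic arrays, and the overlap came from Ngn3-EGFP+ cells, whose list mean was 8.84, against 9.95 and 10.27 in Sox9-EGFP+ cells at e10.5 and e15.5. With the population as a random block, 17 of the 46 fell. Plk1, a kinase of mitotic entry, read 7.63, 8.11 and 8.62 at p23, against 9.07, 10.54 and 11.08 in embryonic arrays, and fell by 2.24 ± 0.18 (adjusted p = 9.064e-08). Aurka, which matures the spindle poles, fell by 1.67 ± 0.12 (adjusted p = 2.432e-08). Spc25, a kinetochore protein, fell by 1.29 ± 0.22 (adjusted p = 0.0001769), with overlapping arrays, and was not called with the population as a random block (adjusted p = 0.117).

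Those 3 genes had the largest gaps among the called and concordant mitosis genes whose promoter carries the cell cycle homology region. Genes of 1 chromosome were left out of that choice. The 3 promoters are shown because the members of the list moved together. The sequences are RefSeq's, build GRCm38.p6, 300 bases each around the first listed start site and mostly upstream of it, 5′ to 3′ on the gene's strand. Capitals mark TTTGAA, the letters used for the cell cycle homology region, and CCAAT, both searched on both strands. Plk1 lies at chr7:122159185-122159484 (plus strand), Aurka at chr2:172370521-172370820 (minus strand) and Spc25 at chr2:69206164-69206463 (minus strand).
Plk1: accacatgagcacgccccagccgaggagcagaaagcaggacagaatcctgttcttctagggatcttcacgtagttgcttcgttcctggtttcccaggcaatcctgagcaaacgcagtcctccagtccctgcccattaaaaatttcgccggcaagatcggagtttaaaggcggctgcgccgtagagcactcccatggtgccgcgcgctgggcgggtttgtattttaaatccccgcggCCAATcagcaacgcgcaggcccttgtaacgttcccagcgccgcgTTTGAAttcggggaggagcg
Aurka: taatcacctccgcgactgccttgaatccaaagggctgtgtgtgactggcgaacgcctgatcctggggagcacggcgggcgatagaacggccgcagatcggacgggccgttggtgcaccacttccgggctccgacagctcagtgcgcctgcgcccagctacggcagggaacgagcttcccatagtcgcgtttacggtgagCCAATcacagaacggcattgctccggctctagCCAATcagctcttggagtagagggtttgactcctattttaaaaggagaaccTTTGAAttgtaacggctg
Spc25: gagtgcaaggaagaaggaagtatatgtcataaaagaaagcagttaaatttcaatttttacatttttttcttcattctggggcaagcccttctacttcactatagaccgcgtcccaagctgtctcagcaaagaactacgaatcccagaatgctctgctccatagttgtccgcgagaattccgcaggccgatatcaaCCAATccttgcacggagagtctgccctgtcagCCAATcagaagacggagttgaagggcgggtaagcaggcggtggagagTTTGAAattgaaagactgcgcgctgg
In each of the 3 promoters TTTGAA begins 25 to 33 bases after the listed start site, with CCAAT further upstream, 1 match in Plk1 and 2 in Aurka and Spc25. Of the 38 mitosis genes with a promoter in the table, 29 (76.3%) held TTTGAA and 28 (73.7%) held CCAAT, against 13.2% and 37.8% of the 13292 tested genes with a promoter. A match describes the letters only and is not a measured binding site.

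DNA replication genes fell too, by less in the median than mitosis genes. Of 39 tested, 36 fell and 1 rose, with a median difference of -0.83, and 17 were concordant and lower. Orc6, Chaf1a and Mcm2 fell in all 6 pairs, a share near the 7.62% of all genes tested. Orc6, part of the origin recognition complex, read 8.38, 9.11 and 9.44 at p23, against 10.07, 10.26 and 10.47 in embryonic arrays (-1.22 ± 0.12, adjusted p = 6.949e-07). Mcm6, a subunit of the replicative helicase, averaged 10.60 and 9.89 in Sox9-EGFP+ and GFP- cells at p23, and 10.40 in Ngn3-EGFP+ cells, against 10.96 and 11.33 in Sox9-EGFP+ cells at e10.5 and e15.5. Pcna (-0.09), the polymerase clamp, was not called, and Tk1, thymidine kinase, rose (0.47; adjusted p = 0.475 with the random block). In the random block fit 11 of the 39 fell.

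Genes of quiescence and cell cycle exit mostly rose. Of 18 tested, 12 rose and 2 fell, with a median difference of 0.83, and 10 were concordant and higher. With the random block 6 rose and 1 fell. Klf9, a hormone-responsive Krüppel-like factor, read 9.03, 9.34 and 9.73 at p23, against 6.47, 7.03 and 8.26 in embryonic arrays (2.03 ± 0.21, adjusted p = 1.194e-06). Klf6 (3.36) and Btg1 (2.32), an antiproliferative cofactor, rose in all 6 pairs, as did Btg2 (1.83) and Rbl2 (1.28), a pocket protein of resting cells. Of the kinase inhibitors themselves, Cdkn2c (1.60) and Cdkn2b (0.30) rose, though neither was called with the random block (adjusted p = 0.147 and 0.445), Cdkn1c fell, and Cdkn1b (0.24), Cdkn2a (0.16) and Cdkn2d (0.03) were not called. Immediate early genes, described below, were higher in the same arrays, and the part of the sorting procedure in Klf6, Btg1 and Btg2 was not tested.

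Chromatin and RNA-binding regulators were lower at p23. Of 40 DNA methylation and chromatin enzymes, 30 fell and 2 rose, and 21 were concordant and lower, with a median difference of -0.65. The random block fit left 13 that fell and 1 that rose. Dnmt3a, a de novo DNA methyltransferase, read 9.50, 9.93 and 10.26 at p23, against 10.93, 11.34 and 11.48 in embryonic arrays (-1.39 ± 0.07, adjusted p = 2.569e-10). Smarca4, the ATPase of the BAF remodelling complex, fell by 1.13 ± 0.08 (adjusted p = 3.401e-08), and Hdac1 (-0.77) and Hmgn2 (-0.96) fell in all 6 pairs. Rbbp4, a histone chaperone, rose in all 6 pairs (0.77). The Polycomb genes Eed (-0.04), Bmi1 (-0.01) and Rnf2 (-0.17) were not called, and Ezh2 fell (-0.43) without being concordant or called with the random block (adjusted p = 0.427). Of 32 splicing and RNA-binding proteins, 25 fell and 1 rose, and with the random block 9 fell and 1 rose. Elavl4, a neuronal-type mRNA stabiliser, read 4.58, 4.95 and 5.16 at p23, against 7.72, 8.25 and 8.51 in embryonic arrays, and Msi1 (-2.50), Elavl2 (-2.36) and Rbfox2 (-1.80) followed. Mbnl1, a splicing factor known to promote adult isoforms, read 11.28, 11.57 and 12.28 at p23, against 9.86, 10.30 and 10.86 in embryonic arrays, and was the only riser of that list. Ribosome biogenesis genes were seldom concordant: 17 of 31 fell and 1 rose, 4 were concordant and lower, 1 fell with the random block, and Nop2 (-1.15) alone fell in all 6 pairs.

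Of 36 embryonic transcription factors, 19 fell and 8 rose, and 11 were concordant and lower, while 8 fell and 1 rose with the random block. Sox11 read 6.60, 6.87 and 7.30 at p23, against 9.83, 11.71 and 14.57 in embryonic arrays, with group means of 14.46 in Sox9-EGFP+ cells at e10.5, 11.79 in Sox9-EGFP+ cells at e15.5 and 10.70 in Ngn3-EGFP+ cells (-5.39 ± 0.23, adjusted p = 8.365e-11). Its relative Sox12 fell by 2.16 ± 0.13, Id4, an inhibitor of basic helix-loop-helix factors, by 1.93 ± 0.15 and Tcf3 by 1.33 ± 0.12. Nfix rose (2.36; adjusted p = 0.0619 with the random block), and it was already at 9.78 and 9.84 in the e15.5 groups, against 6.42 at e10.5. Among the Hox genes, Hoxb5 fell (-1.21) and Hoxa4 rose (0.29), neither with the random block (adjusted p = 0.234 and 0.345), and Hoxb2 (-0.01), Hoxb3 (0.02), Hoxb4 (-0.08), Hoxb6 (-0.01) and Hoxa5 (-0.25) were not called. Lef1 rose (2.71), and its group mean of 12.34 in GFP- cells stood beside 7.97 in Sox9-EGFP+ cells at p23. Lef1 is also expressed in T cells, and leukocyte markers were high in the same GFP- arrays. The part of leukocytes in the Lef1 difference was not tested.

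Endocrine regulators, granule proteins and hormones were lower in both p23 sorts. Of 38 tested, 34 fell and 1 rose, 32 were concordant and lower, and 30 fell in all 6 pairs, with a median difference of -3.28. In the random block fit 31 fell. Pax6 read 5.35, 5.72 and 6.78 at p23, against 11.20, 11.62 and 12.61 in embryonic arrays, and Neurod1 read 4.35, 4.83 and 6.58, against 10.28, 10.48 and 11.11. Both were high in the Sox9-EGFP+ embryonic sorts too: Pax6 averaged 11.37 at e10.5 and 11.41 at e15.5, beside 12.28 in Ngn3-EGFP+ cells. Hormones differed among themselves. Gcg (-3.77) and Ghrl (-4.43) were concordant, whereas Ins2 was not called (-0.23): its group means were 10.58 and 11.56 in Sox9-EGFP+ and GFP- cells at p23, and 8.72, 12.11 and 13.07 in Sox9-EGFP+ cells at e10.5, Sox9-EGFP+ cells at e15.5 and Ngn3-EGFP+ cells. Ppy (-0.62) and Mafa (0.15) were not called either. Rab3d, a GTPase of secretory granules that acinar cells also use, was the 1 member that rose (0.60; adjusted p = 0.579 with the random block).

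Of 29 progenitor regulators, 20 fell and 7 rose, and 8 were concordant and lower, a share near that of all genes. With the population as a random block 5 fell and 2 rose. Nkx6-1 (-3.98), Mnx1 (-2.82), Nkx2-2 (-2.70) and Pdx1 (-2.18) fell in all 6 pairs. Pdx1, required for pancreas formation and beta cell function, read 8.53, 9.54 and 10.16 at p23, against 11.38, 11.57 and 11.99 in embryonic arrays. Prox1 (-1.61), Onecut1 (-1.37) and Fgfr2 (-0.88) fell as well, but they were low only in GFP- cells: Prox1 averaged 11.75 in Sox9-EGFP+ cells at p23 and 7.74 in GFP- cells, against 11.31 to 11.40 in the embryonic groups. With the random block none of the 3 was called (adjusted p = 0.147, 0.14 and 0.502). Without the GFP- group, 10 of the 29 fell and 10 rose. Sox9 fell by 0.93 ± 0.20 (adjusted p = 0.001333), but its difference was 0.25 and not called without the GFP- group (adjusted p = 0.303), and it was not called with the population as a random block (adjusted p = 0.402).

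Neuronal and growth cone genes, many of which endocrine progenitors also express, fell. Of 38 tested, 30 fell and 2 rose, 15 fell in all 6 pairs, and 15 fell with the random block. Map1b, a microtubule protein of growing axons, read 6.53, 6.97 and 8.21 at p23, against 11.28, 11.78 and 12.33 in embryonic arrays (-4.59 ± 0.22, adjusted p = 3.727e-10). Nefm and Nefl, neurofilament subunits, fell by 4.96 ± 0.21 and 4.58 ± 0.39, and Tubb3, the neuronal tubulin, by 4.59 ± 0.18. The median difference of the list was -0.68, and it reached from those falls to L1cam (0.53) and Kif21b (0.54), which rose. Neither of these rises was called with the random block. Without the GFP- group 21 fell and 2 rose.

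**Figure D4:**
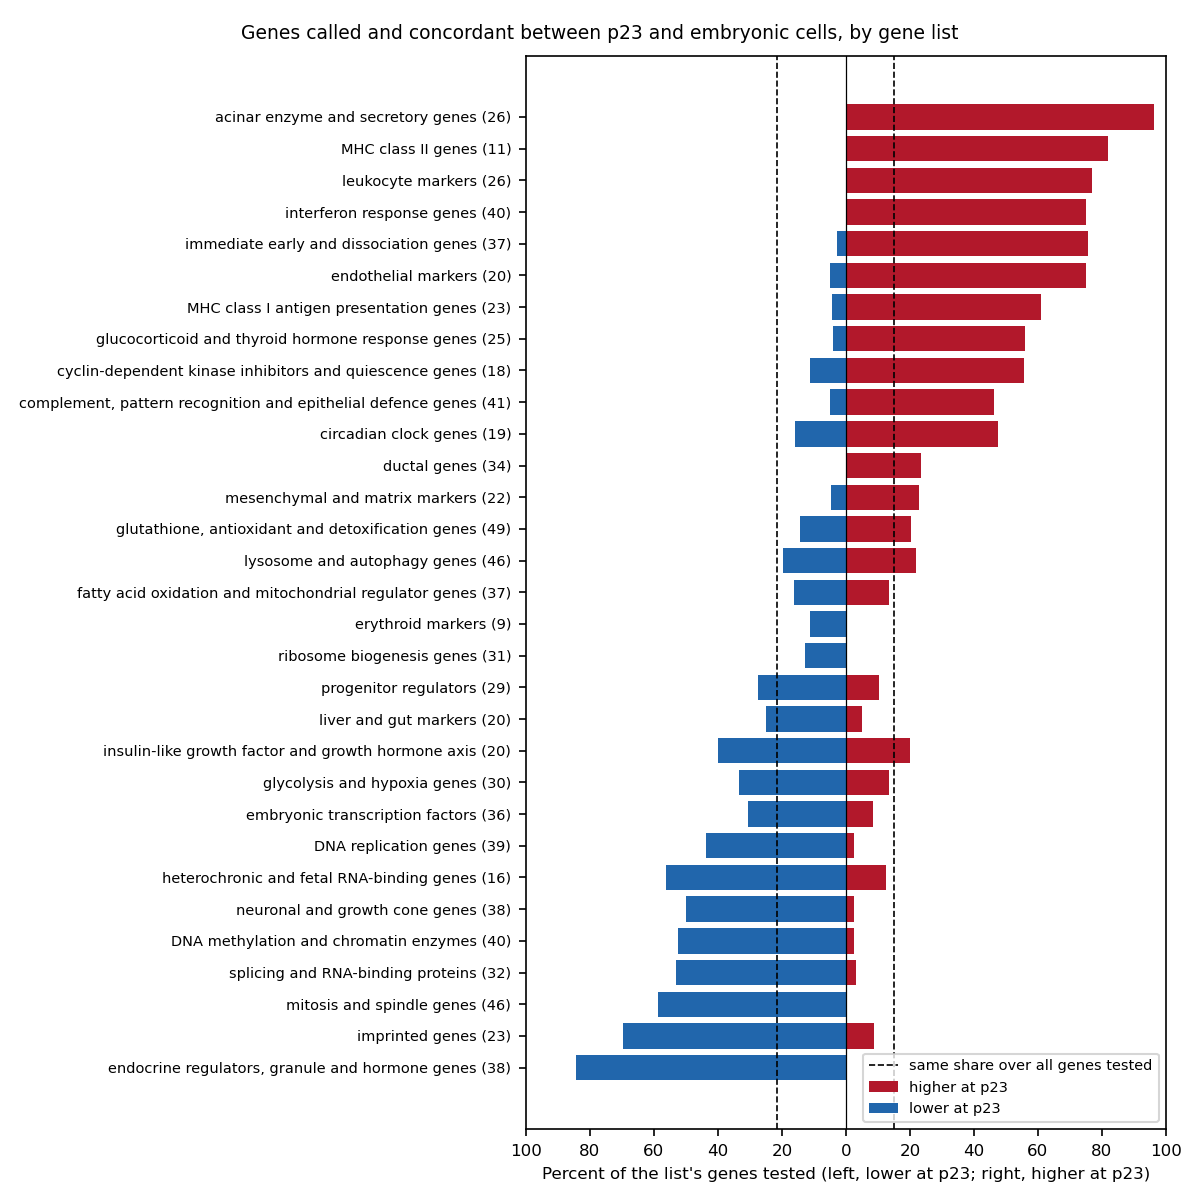
Percent of each list's tested genes that were called and concordant (bars, right and red for higher at p23, left and blue for lower), with the number of genes tested in brackets and dashed lines at the same share of all genes tested, 15.1% higher and 21.6% lower. Acinar genes stand furthest right with 25 of 26 genes and endocrine genes furthest left with 32 of 38.

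Acinar genes were higher at p23 in both sorts, including the GFP+ one. Of 26 tested, 26 rose and 25 were concordant, with a median difference of 5.35. The mean level of the list averaged 12.83 in Sox9-EGFP+ cells and 13.25 in GFP- cells at p23, against 6.49 in Sox9-EGFP+ cells at e10.5, 8.99 in Sox9-EGFP+ cells at e15.5 and 8.50 in Ngn3-EGFP+ cells. Gp2, the main zymogen granule membrane protein, read 12.79, 13.18 and 13.47 at p23, against 4.98, 5.70 and 6.21 in embryonic arrays. Ctrb1, a chymotrypsinogen, rose by only 2.77, as it had already reached 13.47 and 13.33 in Sox9-EGFP+ and Ngn3-EGFP+ cells at e15.5, and it was not called with the random block (adjusted p = 0.189). Whether the acinar RNA in the GFP+ sort came from the sorted cells or from others was not tested. Probe sets of the trypsinogens (Try4, Try5, Try10) and of the Reg genes may share signal, so their single values are uncertain.

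Ductal genes were mostly not concordant, and their mean level was 11.06 in Sox9-EGFP+ and 9.06 in GFP- cells at p23, against 8.74 to 9.75 in the embryonic groups. Of 34 tested, 21 rose and 6 fell, and 8 were concordant and higher. The random block fit left 4 that rose and 1 that fell. Cp (ceruloplasmin) read 8.05, 10.36 and 12.23 at p23, against 4.97, 5.50 and 7.48 in embryonic arrays, and Anxa3 (3.29), Cd44 (2.32) and Car2 (1.82) rose in all 6 pairs. Krt7 (-2.21), a duct keratin, fell through the GFP- group alone, at 7.41, with 10.87 in Sox9-EGFP+ cells at p23 and 10.66 to 11.81 in the embryonic groups. Without the GFP- group 28 of the 34 rose and 1 fell, and without Sox9-EGFP+ p23 cells 10 rose and 15 fell.

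Immune genes rose at p23, and leukocyte markers moved with them. Of 40 interferon response genes, 38 rose and 0 fell, and 30 were concordant and higher, with a median difference of 1.22; 20 rose with the population as a random block. Their mean level was 8.70 in Sox9-EGFP+ cells and 9.59 in GFP- cells at p23, against 7.45, 7.87 and 7.80 in Sox9-EGFP+ cells at e10.5, Sox9-EGFP+ cells at e15.5 and Ngn3-EGFP+ cells. Parp14, an ADP-ribosyltransferase induced by interferon, read 9.78, 10.15 and 11.07 at p23, against 6.49, 6.76 and 7.04 in embryonic arrays (3.54 ± 0.11, adjusted p = 3.322e-12). Ifi27, a mitochondrial and nuclear interferon-induced protein, read 10.80, 10.99 and 11.18 at p23, against 6.20, 7.96 and 8.49, and both p23 sorts had nearly the same level. Without the GFP- group 31 of 40 rose and 0 fell.

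Ifit1 binds foreign RNA, and Ddx58 (RIG-I) is a sensor of viral RNA. They had the largest gaps among the called and concordant interferon genes whose promoter holds GAAANNGAAA, the letters of an interferon-stimulated response element. Genes of 1 chromosome were again left out of the choice. Ifit1 and Ddx58 are shown in the same way, with that element in capitals on either strand. Ifit1 lies at chr19:34640639-34640938 (plus strand) and Ddx58 at chr4:40239776-40240075 (minus strand), GRCm38.p6.
Ifit1: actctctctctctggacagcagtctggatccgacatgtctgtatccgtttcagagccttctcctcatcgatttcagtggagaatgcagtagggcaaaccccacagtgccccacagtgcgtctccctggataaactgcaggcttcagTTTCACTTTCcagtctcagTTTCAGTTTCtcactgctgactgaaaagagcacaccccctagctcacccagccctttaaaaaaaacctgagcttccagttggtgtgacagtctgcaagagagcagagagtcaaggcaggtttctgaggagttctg
Ddx58: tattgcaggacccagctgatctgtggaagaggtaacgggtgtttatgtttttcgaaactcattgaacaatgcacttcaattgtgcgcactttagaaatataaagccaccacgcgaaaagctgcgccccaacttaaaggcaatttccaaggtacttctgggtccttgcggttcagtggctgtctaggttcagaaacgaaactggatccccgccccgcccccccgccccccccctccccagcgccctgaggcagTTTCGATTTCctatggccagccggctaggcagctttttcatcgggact
Ifit1 holds 2 matches, the first at position -104 from the listed start site, and Ddx58 holds 1, from 3 bases after it. The letters occur in 3.02% of the 13292 tested promoters. No share is given for the list, because only 31 of its 40 genes have a promoter in the table. Ifit1 read 8.24, 8.77 and 10.14 at p23, against 5.81, 6.32 and 6.77 in embryonic arrays (2.69 ± 0.17, adjusted p = 7.586e-09).

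Of 23 genes of MHC class I antigen presentation, 15 rose and 1 fell, and 14 were concordant and higher, while 5 rose with the random block. B2m, the invariant class I chain, read 12.38, 12.91 and 13.24 at p23, against 9.37, 10.32 and 10.77 in embryonic arrays (2.66 ± 0.12, adjusted p = 1.273e-10). Psmb8, an immunoproteasome subunit, rose by 4.16 ± 0.26 and its partner Psmb10 by 1.94 ± 0.12, while the chaperone Calr (-0.00) and the proteasome activator Psme1 (0.01) were not called and Pdia3 fell (-0.27; adjusted p = 0.366 with the random block). Of 11 MHC class II genes, 11 rose, and 7 with the random block, but 6 rose and 1 fell without the GFP- group. Cd74, the class II invariant chain, averaged 9.07 in Sox9-EGFP+ and 13.43 in GFP- cells at p23, against 6.16 to 6.38 in the embryonic groups. Of 26 leukocyte markers 25 rose, and the mean level of the list ran between 7.51 and 11.02 in the p23 arrays, against 6.71 to 7.35 in the embryonic arrays. Ptprc (CD45), the common leukocyte antigen, averaged 9.62 in Sox9-EGFP+ cells and 14.44 in GFP- cells at p23, against 6.55 to 7.02 in the embryonic groups. Endothelial markers moved likewise, with 18 of 20 higher and 1 lower (8 and 0 with the random block) and a list mean of 7.35 to 8.50 at p23, against 6.83 to 7.30, and Pecam1 averaged 7.77 in Sox9-EGFP+ and 10.56 in GFP- cells. The part of leukocytes and vessel cells in the interferon and MHC differences was not tested.

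Complement, pattern recognition and epithelial defence genes also rose: 30 of 41 were higher and 3 lower, and 19 were concordant and higher, with a median difference of 0.96, and 14 rose with the random block. The list means of the p23 sorts were level, at 9.04 in Sox9-EGFP+ and 9.07 in GFP- cells, against 6.94 to 7.39 in the embryonic groups. Equal means do not show that single members were level between the sorts. Lectins of the Reg family, Reg2, Reg3a, Reg3b and Reg3g, led the list, and acinar cells are a known source of them. Reg3g, which binds bacterial peptidoglycan, read 11.37, 12.71 and 14.01 at p23, against 5.32, 5.64 and 6.08 in embryonic arrays.

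**Figure D5:**
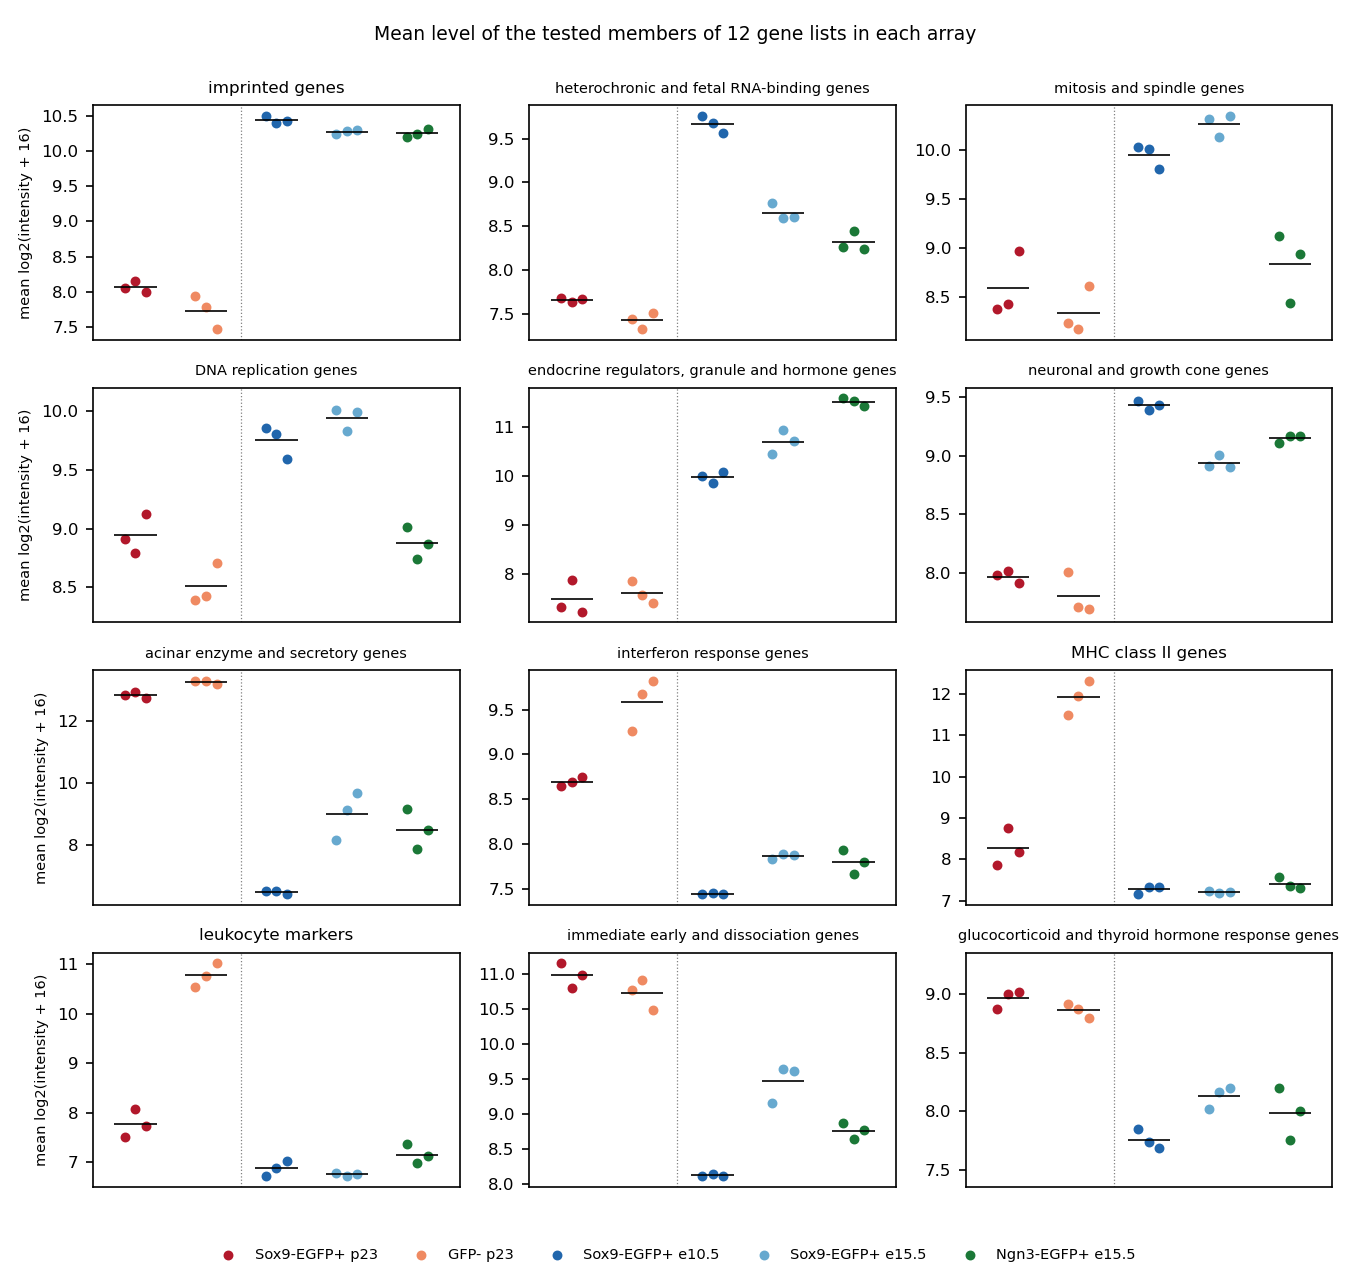
Mean level of the tested members of 12 gene lists in each array (y axes, mean log2(intensity + 16)), with p23 populations left of the dotted line and embryonic populations right of it, points for arrays and bars for group means. Imprinted genes lie between 7.47 and 8.15 in the p23 arrays, against 10.20 to 10.49 in the embryonic arrays, mitosis and replication genes of Ngn3-EGFP+ cells reach the p23 range, and leukocyte and MHC class II genes are highest in GFP- cells.

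Of 25 glucocorticoid and thyroid hormone response genes, 17 rose and 2 fell, and 14 were concordant and higher, with a median difference of 0.93. With the population as a random block 8 rose and 1 fell. Sgk1, a kinase induced by corticosteroids, read 9.0, 9.51 and 9.88 at p23, against 4.39, 6.24 and 7.63 in embryonic arrays (3.28 ± 0.28, adjusted p = 1.824e-07). Tsc22d3 (GILZ, 1.35), the enzyme Hsd11b1 (2.44), which regenerates active glucocorticoid, and the receptors Nr3c1 (1.17) and Nr3c2 (0.70) rose, of which Nr3c1 was not called with the random block (adjusted p = 0.105). Fkbp5, a receptor cochaperone that glucocorticoids normally induce, was lower: it read 6.37, 6.96 and 7.90 at p23, against 8.56, 8.84 and 9.13 in embryonic arrays, and fell in all 6 pairs (-1.73). Of thyroid hormone genes, the receptor Thrb rose (0.93), Thra fell (-0.53; adjusted p = 0.364 with the random block), and the targets Hr (0.23), Dio1 (0.16) and Thrsp (0.10) were not called. Nfkbia (2.88) and Dusp1 (2.75), which head the list beside Sgk1, also respond to cell stress.

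Of 19 circadian clock genes, 9 rose, 3 fell and 7 were not called, and all 12 that were called were concordant. The random block fit left 4 that rose and 3 that fell. Nr1d1 (REV-ERBα), a repressor of Arntl, read 8.90, 9.86 and 11.24 at p23, against 6.44, 7.16 and 8.28 in embryonic arrays (2.76 ± 0.27, adjusted p = 6.337e-07). Arntl (BMAL1) itself read 8.92, 9.12 and 9.68, against 7.69, 8.06 and 8.44 (1.14 ± 0.12, adjusted p = 1.538e-06), and Rora (2.06), Nfil3 (1.23) and Bhlhe40 (3.81) rose in all 6 pairs, Nfil3 without a call in the random block fit (adjusted p = 0.0904). Cry2 (-0.92) and Csnk1d (-0.75) fell in all 6 pairs. Dbp (0.29), an output gene of the clock, was not called, and neither were Per2 (-0.09) and Per3 (-0.23). The labels give no hour of harvest, so time of day and age cannot be told apart.

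Immediate early and dissociation genes, which single-cell suspension and heat or enzyme stress induce, were higher at p23: of 37 tested, 33 rose and 1 fell, and 28 were concordant and higher, with a median difference of 1.86, and 22 rose with the random block. Their mean level was 10.98 in Sox9-EGFP+ and 10.72 in GFP- cells at p23, against 8.12, 9.47 and 8.76 in Sox9-EGFP+ cells at e10.5, Sox9-EGFP+ cells at e15.5 and Ngn3-EGFP+ cells. The heat shock gene Hspa1a read 10.16, 11.11 and 11.78 at p23, against 4.70, 6.05 and 7.53 in embryonic arrays (5.04 ± 0.26, adjusted p = 5.819e-10). Hspb1, a small heat shock protein, rose by 3.24 ± 0.21 and Zfp36, an mRNA decay factor, by 3.24 ± 0.13. The labels give the same enzymes for all ages, with trypsin if needed. The part of dissociation in the hormone, clock and quiescence lists was not tested.

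Metabolic lists were mixed. Of 30 glycolysis and hypoxia genes 18 fell and 5 rose, with a median difference of -0.51, and with the random block 5 fell and 1 rose. Pkm, the pyruvate kinase whose M2 form is known from growing tissue, read 8.93, 9.74 and 10.05 at p23, against 11.02, 11.26 and 11.98 in embryonic arrays (-1.70 ± 0.10, adjusted p = 1.705e-09). The phosphofructokinases differed in direction: the platelet form Pfkp rose by 2.07 ± 0.16 and the liver and muscle forms Pfkl and Pfkm fell by 1.27 ± 0.10 and 0.93 ± 0.09, each in all 6 pairs. Fatty acid oxidation and mitochondrial regulators (10 higher and 8 lower of 37) and lysosome and autophagy genes (14 and 12 of 46) had medians of 0.12 and 0.04. Antioxidant and detoxification genes (17 and 11 of 49) had a median of 0.05. At most 4 members of each of these lists were higher and 3 lower with the random block. Over all genes tested 25.0% were higher and 32.9% lower. Fatty acid oxidation and lysosome genes were near that share for higher genes, and none of these lists reached it for lower genes. Fabp4, a fatty acid carrier of adipocytes and capillary endothelium, rose by 4.27 ± 0.20, Aldh1a1, a retinal dehydrogenase, by 2.65 ± 0.15, and the cathepsin Ctsh by 2.25 ± 0.15, while the cathepsin Ctsf fell by 1.74 ± 0.13 and the plasma glutathione peroxidase Gpx3 by 2.49 ± 0.11.

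Of 22 mesenchymal and matrix markers 10 rose and 2 fell (2 and 1 with the random block), with a median difference of 0.18, and Col1a1, the main fibrillar collagen chain, read 8.85, 9.15 and 9.46 at p23, against 8.72, 9.11 and 9.75 in embryonic arrays, so the ages overlapped (0.00, adjusted p = 0.9814 by limma). Of 9 erythroid markers 0 rose and 2 fell. The embryonic globin Hbb-y read 5.91, 6.11 and 6.23 at p23, against 5.85, 6.25 and 11.20 in embryonic arrays, of which 3 exceeded 9, and its difference was not called (-1.45, adjusted p = 0.09591). Of 20 liver and gut markers 3 rose and 9 fell (1 and 2 with the random block). Afp, the fetal serum protein, read 5.31, 5.69 and 6.09 at p23, against 7.23, 9.78 and 12.07 in embryonic arrays, Alb was not called (0.52, adjusted p = 0.5065), and Tff2, a trefoil peptide of mucus-secreting epithelium, read 12.29, 12.98 and 13.37 at p23, against 5.70, 7.62 and 8.69 in embryonic arrays.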

How the data were processed

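Expression was measured in 15 samples, each on 1 Affymetrix gene array from amplified RNA. The values are intensities that, per the submitters' processing notes, the authors made with Affymetrix Expression Console 1.1 and PLIER; the deposited table was used as given, with array medians of 165.5 to 211.7. Its between-array normalization and the array's genome build are not stated in what was used here, and the number of arrays limits the precision.

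Of 35557 probe sets, 21789 have 1 gene in the platform annotation, 1621 several and 12147 none, and only the first kind was named. The probe set with the highest mean stood for each of 19938 genes (999 have several), and 16883 genes above an intensity of 97.8 (the 30th percentile) in at least 3 arrays were tested. Values are log2(intensity + 16), which understates changes of dim genes. limma 3.58.1 in R 4.3.3 fitted the 5 group means, and every p printed is its Benjamini-Hochberg adjusted p over all genes tested, called under 0.05. Errors are standard errors of the difference. The labels describe pools of animals, so p-values measure the spread between pools. The fit was checked on simulated data.

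Named genes were the 10 furthest in each direction by gap, up to 4 members per list by gap, Sox9, Neurog3 and the first marker of each other cell type; other members, named where they show how a list divides, were picked after their values were seen. The members and the 31 gene lists (938 of 1023 entries on the array) were chosen with earlier results of these data known. Alternatives covered the offset, normalization, filter, probe set choice, variance model, error term and left-out arrays or groups.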

Additional observations from a re-analysis of the deposited data

How the results depend on the processing

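The counts to compare are 4218 genes higher and 5557 lower at p23, 2791 and 3815 concordant, and 622 and 1287 called in all 6 pairs of groups. The error term changed the called counts most: with age as the only term 2526 were higher, and with the population as a random block 860 were higher and 1379 lower. Tested against a 1.5-fold change, 1138 were higher and 1463 lower, with 196 and 329 in all pairs. Leaving out a group asks less of a concordant gene by construction. Without Ngn3-EGFP+ cells 956 and 2558 were called in all pairs. Without GFP- cells 5421 were concordant and higher and 1520 higher in all pairs, Sox9 turned to 0.25 (adjusted p = 0.303 by limma), and 625 calls changed direction. Without Sox9-EGFP+ p23 cells 4628 and 6291 were concordant and 1782 and 3213 called in all pairs, and 328 calls changed direction. Without the 3 embryonic arrays with Hbb-y above 9, 374 and 751 were called in all pairs, with fewer arrays per group. Leaving out 1 array at a time gave 3708 to 4452 higher and 5168 to 5766 lower, 2474 to 2972 and 3661 to 3998 concordant, and 511 to 647 and 1039 to 1345 in all pairs. The share of calls that were higher was 43.2%, and 48.5% after quantile normalization.

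Replicate numbers did not pair p23 with embryonic samples: deviations of same-numbered samples correlated at -0.487 to 0.198, over 0.1 in 2 of 18 pairs. Same-numbered arrays of 1 age, such as the Sox9-EGFP+ and GFP- arrays at p23, were not compared. Whether those share pools was not tested. With the replicate block 3977 were higher and 5365 lower. Of the values of named genes under the alternatives, 4519 kept direction and side of the threshold, 28 lost their call, 2 gained one (Hbb-y) and 1 reversed (Sox9). Of the list counts, 238 moved by over 1.5 times and 1932 did not. Genes near the filter carry little signal over background, and their differences are the least certain.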

Other observations

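Gene families grouped by symbol gave further counts, with 25.0% of all genes higher and 32.9% lower at p23. Of 326 Zfp zinc finger genes, 38 were higher and 153 lower, with a median difference of -0.24. Of 42 histone genes 4 were higher and 14 lower. Of 57 ribosomal protein genes 5 were higher and 9 lower, and of 82 Kcn potassium channel genes 21 and 20. Of 16 Cacna and Cacnb calcium channel genes 1 was higher and 8 were lower. Of 324 solute carriers 94 were higher and 79 lower. Interleukins and their receptors were higher for 41 and lower for 0 of 59 genes, and tumour necrosis factor superfamily members and receptors for 24 and 2 of 35, in arrays whose leukocyte markers were also higher.

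Concordant genes with a gap of at least 1 had a median gene span of 15.8 kb where higher at p23 (286 genes with a span) and 21.7 kb where lower (406 genes), beside 19.7 kb over 16870 genes tested. CACGTG, the E-box of the clock, occurred in 5 of the 16 circadian genes with a RefSeq promoter (31.2%), against 9.13% of tested genes. Of the called and concordant circadian genes, 10 had a promoter, and 1 of them held these letters.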
